A study of Mus musculus with 4 samples.

Results

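The genes described here are 37 mouse genes of DNA repair, chosen by name from textbook pathways. These are homologous recombination, the Fanconi anaemia pathway, mismatch repair, and the kinases and ligase that act with them. The uracil glycosylase gene Ung, which belongs to none of these, is also among the 37. They are 37 of the 54532 genes in the deposited count table, and all 37 had enough counts to be tested, among 14056 genes tested in all. No measured value of these samples entered the rule that picks them, although they were picked with earlier results of these data known.

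Homologous recombination mends double-strand breaks and broken replication forks by copying the sister chromatid. Broken ends are cut back to single strands, the BRCA proteins ready them for strand exchange, and motor proteins and helicases drive strand exchange and take the joint molecules apart. The Fanconi pathway unhooks crosslinks between the strands by placing ubiquitin on the FANCD2-FANCI clamp, and mismatch repair corrects errors left by the replicative polymerases. Many genes of these pathways are known to be transcribed mainly around DNA synthesis in dividing cells, and in the basal layer of the epidermis the stem and progenitor cells are the ones that divide.

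The series measured gene expression in cultured epidermal stem cells by sequencing their RNA. The cells came from the skin of C57BL/6 mice and grew in EpiLife medium with HKGS additives. A pair of libraries came from cultures given ALP, a polysaccharide of Arctium lappa (burdock), at 30 μg/mL for 48 h, and the other pair from control cultures given 0.06% DMSO for 48 h. The labels do not say whether the ALP cultures also received DMSO, how the cells were sorted, or whether replicate libraries stem from different dishes or mice, so a p-value measures only the spread between these libraries, which may be technical. The libraries of each group are called replicate A and replicate B, letters that are names only and pair nothing.

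Depth was even across the 4 libraries, from 15766244 to 17430345 counts, and a count of 3 was worth between 0.170 and 0.194 CPM (counts scaled to library size). The 37 genes took between 15912 and 22479 counts of a library, and a single gene between 27 and 3618. All 10 markers of basal epidermis were detected, and they moved in both directions: 4 rose (Itga6, Itgb4, Itgb1 and Lamb3, by 0.38 to 1.14 on the log2 scale) and 3 fell (Trp63, Col17a1 and Dst, at -0.61 to -1.43). The keratins of that layer stayed the most abundant markers, with Krt5 at 14839 and 12313 CPM with ALP and 21245 and 21193 CPM in control, and Krt14 at 14324 and 11170 CPM against 18985 and 19151 CPM. Krt15, a keratin of epidermal stem cells, stood at 58.4 and 1.75 CPM against 251 and 201 CPM. All 3 keratins were lower in both ALP libraries and none passed the test (edgeR adjusted p of 0.0719, 0.0982 and 0.120), while 5 of the 10 markers fell by DESeq2 and 6 by voom. Summed over its list, each other cell type was far below Krt5 and Krt14. Fibroblast markers summed to 4.98 to 18.0 CPM with Lum at 0, and melanocyte markers to 54.2 to 66.2 CPM. Immune markers summed to 5.17 to 10.4 CPM, with Cd3e, Cd4, Cd8a and Cd207 at 0. Most of that immune sum was Cd68, at 6.94 and 5.04 CPM with ALP and 9.12 and 9.25 CPM in control (edgeR adjusted p = 0.0835). Endothelial markers summed to 14.8 and 25.2 CPM with ALP and 6.85 and 8.05 CPM in control, with Emcn at 0 throughout; Kdr (3.46) and Pecam1 (1.21) rose and Tek (-2.63) fell. The fibroblast marker Dcn fell too (-2.56, adjusted p = 0.0332). The part of these markers in the results on repair genes was not tested.

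With ALP, most of the repair genes stood higher. Of the 37 genes, 24 rose, 1 fell and 12 did not pass the test (edgeR quasi-likelihood test, Benjamini-Hochberg adjusted p under 0.05 over all genes tested). Over all genes tested, 18.0% rose and 12.9% fell. The median log2 fold change of the 37 genes was 0.69, a fold of 1.62, against -0.0029 for all genes tested. The changes of the 24 genes that rose ran from 0.39 to 1.43 on the log2 scale, and 8 of them rose at least 2-fold. Both ALP libraries lay above both controls in 29 of the 37 genes, a pattern that 38.2% of all genes tested showed. The groups overlapped in 7 genes, all of them among those that did not pass the test, and 1 gene had both ALP libraries below both controls. Of the 14056 genes tested in all, 3415 overlapped and 5278 had both ALP libraries below both controls. Of the 24 genes that rose, 23 stood higher in ALP replicate B than in ALP replicate A. The median difference of the 37 genes from the control mean was 0.55 in replicate A and 0.77 in replicate B. Over all genes tested these medians were 0.0073 and -0.0023. The larger shift in replicate B was not particular to the repair genes. Replication genes, described below, had medians of 0.91 and 1.14, and mitotic genes 0.45 and 0.44. In libraries of many cells, a larger share of cells that express a gene and more of its RNA per cell cannot be told apart.

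The calls rest on having both controls. Without control replicate A, and likewise without control replicate B, edgeR called 0 of the 37 genes and 0 of all genes at the adjusted threshold; at an unadjusted p under 0.05, 19 and 18 of the 37 genes were higher. The direction changed little: 31 and 32 of the 37 genes kept a positive log2 fold change in those fits.

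**Figure D1:**
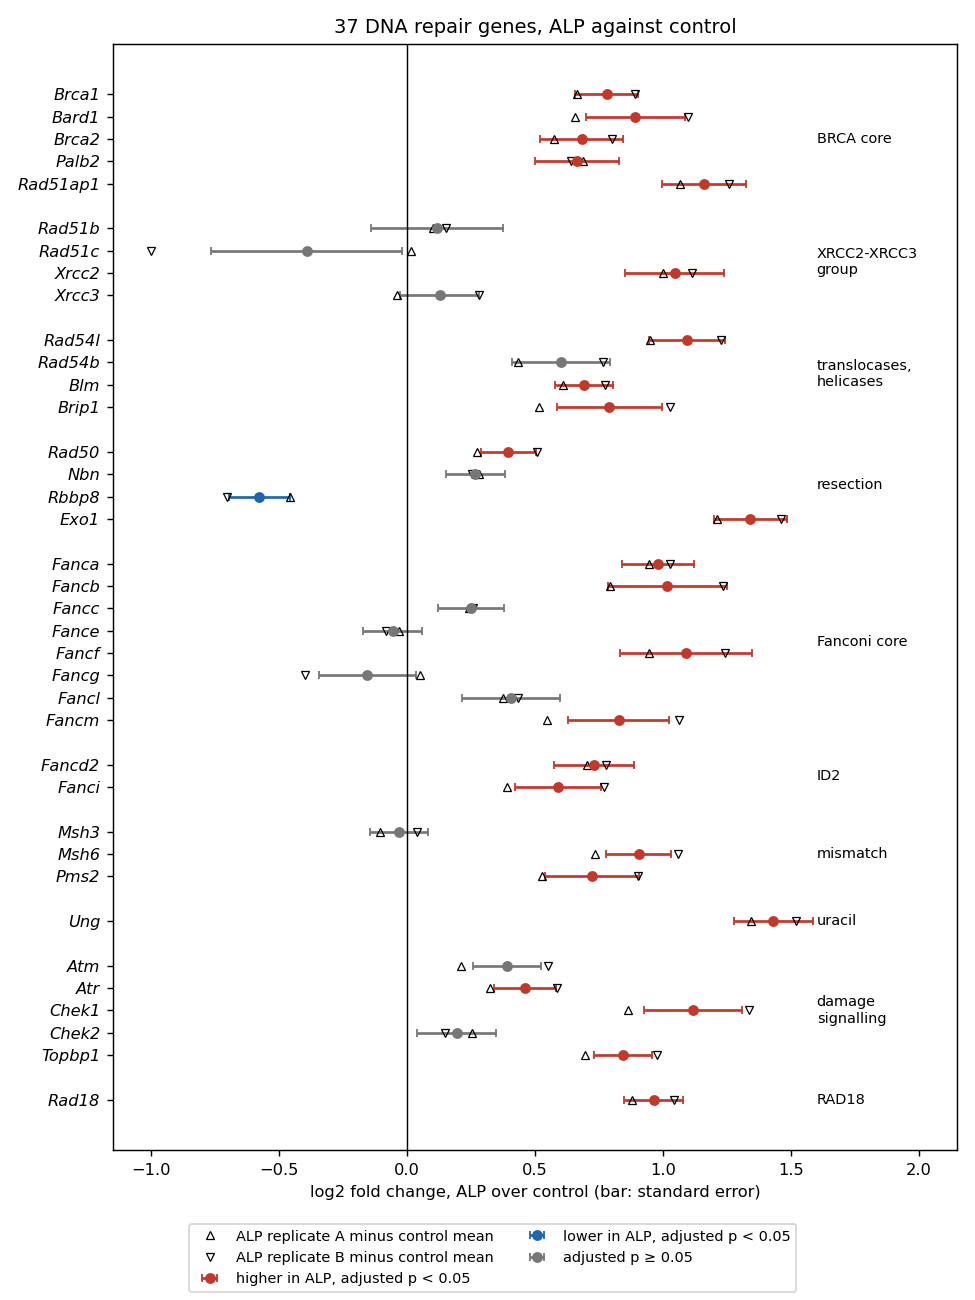
Log2 fold change of each of the 37 repair genes, ALP over control (x axis), with genes grouped by role on the y axis. Filled points with bars are the fitted change and its standard error, red where the gene rose, blue where it fell and grey where adjusted p was 0.05 or more, and open triangles are each ALP library minus the control mean. The 24 red points lie between 0.39 and 1.43, and Rbbp8 is the only blue one.

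The genes around BRCA1 and BRCA2 rose as a group, 5 of 5, with a median log2 fold change of 0.78. Brca1 and its partner Bard1 form a ubiquitin ligase that favours recombination at broken ends. Brca1 stood at 45.1 and 52.8 CPM in the ALP libraries and 27.5 and 29.5 CPM in the controls, a log2 fold change of 0.78 ± 0.12 (standard error; adjusted p = 0.0155). Bard1 stood at 15.9 and 21.6 CPM against 10.3 and 9.88 CPM, a log2 fold change of 0.89 ± 0.19 (adjusted p = 0.0262). In both genes each ALP library was above each control. Rad51ap1, which helps a broken strand invade the intact duplex, had the largest change of the group. Its levels were 17.9 and 20.4 CPM with ALP and 8.04 and 9.08 CPM in control, a log2 fold change of 1.16 ± 0.16 (adjusted p = 0.0151), with no overlap. Brca2, which acts on the resected single strands, rose by 0.68 ± 0.16 on the log2 scale (adjusted p = 0.0323). Palb2, which joins BRCA1 to BRCA2, rose by 0.66 ± 0.16 (adjusted p = 0.0341), a call that the DESeq2 Wald test did not make (adjusted p = 0.0546).

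The promoters of this group are shown because E2F factors, which act at entry into DNA synthesis, have their known binding letters in some repair genes and not in others. The search covered TTTCCCGC, TTTGGCGC, TTTCGCGC and TTTGCCGC, on both strands, in RefSeq windows of 300 bases around the annotated start (GRCm38.p6). Each window printed here is 30 bases, 5′ to 3′ on the gene's strand, with the match in capitals, the reverse complement where it lies on the other strand. Bard1 holds it at chr1:71103163-71103192 (minus strand) and Brca2 at chr5:150522442-150522471 (plus strand).
Bard1: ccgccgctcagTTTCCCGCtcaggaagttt
Brca2: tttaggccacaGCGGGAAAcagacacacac

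Of Rad51b, Rad51c, Xrcc2 and Xrcc3, related genes that assist strand exchange, 1 of 4 rose and 3 did not pass the test, with a median log2 fold change of 0.12. Xrcc2 was the one that rose, from 5.89 and 7.60 CPM in control to 13.4 and 14.5 CPM with ALP, a log2 fold change of 1.04 ± 0.19 (adjusted p = 0.0190) without overlap. Xrcc3 stood at 18.4 and 23.0 CPM with ALP and 18.9 and 19.0 CPM in control (log2 fold change 0.13 ± 0.15, adjusted p = 0.553). Rad51b stood at 3.12 and 3.23 CPM against 2.61 and 3.26 CPM (0.12 ± 0.26, adjusted p = 0.755). The ALP and control libraries overlapped in both. Rad51c, a subunit shared by the complexes that hold XRCC2 and XRCC3, stood at 3.53 and 1.75 CPM with ALP and 3.28 and 3.71 CPM in control (-0.39 ± 0.37, adjusted p = 0.447). ALP replicate B alone was low in Rad51c: without ALP replicate A its log2 fold change was -1.0, and without ALP replicate B it was 0.02. Rad51b and Rad51c were also the lowest of the 37 genes per kilobase in control, at 0.780 and 0.798 CPM per kb, so few counts stand behind their values. Whether Xrcc2 differed in its response from the other 3 genes was not tested.

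Xrcc3 is shown because its promoter holds 6 matches to CCAAT, the box bound by NF-Y, in a gene that did not pass the test. The 250 bases before its RefSeq start are chr12:111813880-111814129 (minus strand), with CCAAT, or ATTGG where it lies on the other strand, in capitals.
Xrcc3: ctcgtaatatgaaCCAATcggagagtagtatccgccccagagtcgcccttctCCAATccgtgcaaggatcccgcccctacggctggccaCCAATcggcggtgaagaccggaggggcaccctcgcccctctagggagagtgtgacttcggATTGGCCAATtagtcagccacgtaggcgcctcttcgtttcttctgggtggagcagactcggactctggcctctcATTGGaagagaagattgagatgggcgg

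Motors and helicases followed, with 3 of 4 higher and a median log2 fold change of 0.74. Rad54l, a motor of strand exchange, stood at 26.8 and 32.5 CPM with ALP and 14.2 and 13.5 CPM in control (1.09 ± 0.15, adjusted p = 0.0150). Its exons share 15.4% of their bases with Lrrc41 on the other strand, and the sources used here do not give the strandedness of the counting, so part of its reads may belong to that gene. Blm, the Bloom syndrome helicase that takes joint molecules apart, stood at 38.4 and 43.0 CPM against 25.4 and 25.0 CPM (0.69 ± 0.11, adjusted p = 0.0158). Brip1, a helicase that binds BRCA1, stood at 19.6 and 27.9 CPM against 14.5 and 13.0 CPM (0.79 ± 0.20, adjusted p = 0.0381). In these 3 genes the groups did not overlap. Rad54b, a relative of Rad54l, stood at 13.2 and 16.6 CPM with ALP and 9.06 and 10.6 CPM in control (0.60 ± 0.19, adjusted p = 0.0606). Its groups did not overlap either, and without ALP replicate A its log2 fold change was 0.75. Rad54b shares 35.8% of its exon bases with Fsbp on the same strand, a gene with 65 counts over all libraries.

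Brip1 is shown for its CCAAT boxes in a gene that rose: the 120 bases before its RefSeq start, chr11:86201194-86201313 (minus strand), hold 3, all on the other strand and so written ATTGG in capitals.
Brip1: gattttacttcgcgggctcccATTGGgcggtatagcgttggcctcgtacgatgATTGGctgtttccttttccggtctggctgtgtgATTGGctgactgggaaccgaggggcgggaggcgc

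The genes that process broken ends moved in both directions, with 2 of 4 higher, 1 lower and a median log2 fold change of 0.33. Exo1, the nuclease of long-range resection that also removes the strand in mismatch repair, stood at 32.1 and 38.2 CPM with ALP and 13.3 and 14.5 CPM in control. Its log2 fold change of 1.34 ± 0.14 (adjusted p = 0.0149) was the second largest of the 37 genes. Rbbp8, which encodes CtIP, the cofactor that starts resection with the MRE11 nuclease, was the only gene of the 37 that fell. It stood at 65.1 and 55.0 CPM with ALP and 94.1 and 85.1 CPM in control, both ALP libraries below both controls, and fell by 0.58 ± 0.12 on the log2 scale (adjusted p = 0.0230). By its deposited length of 3867 bases, Rbbp8 was the most abundant of the 37 genes per kilobase in control, at 23.2 CPM per kb. With ALP it was the fourth, at 15.5 CPM per kb. Its deposited coordinates differ from those of GENCODE M21, so these ranks depend on that length. Rad50, the long coiled-coil partner of MRE11, stood at 91.6 and 108 CPM against 75.9 and 75.9 CPM (0.39 ± 0.11, adjusted p = 0.0423), and missed the threshold with upper-quartile scaling (adjusted p = 0.0553). Nbn, the third subunit of that complex, stood at 27.3 and 26.7 CPM against 23.0 and 21.9 CPM, without overlap (0.27 ± 0.11, adjusted p = 0.125).

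**Figure D2:**
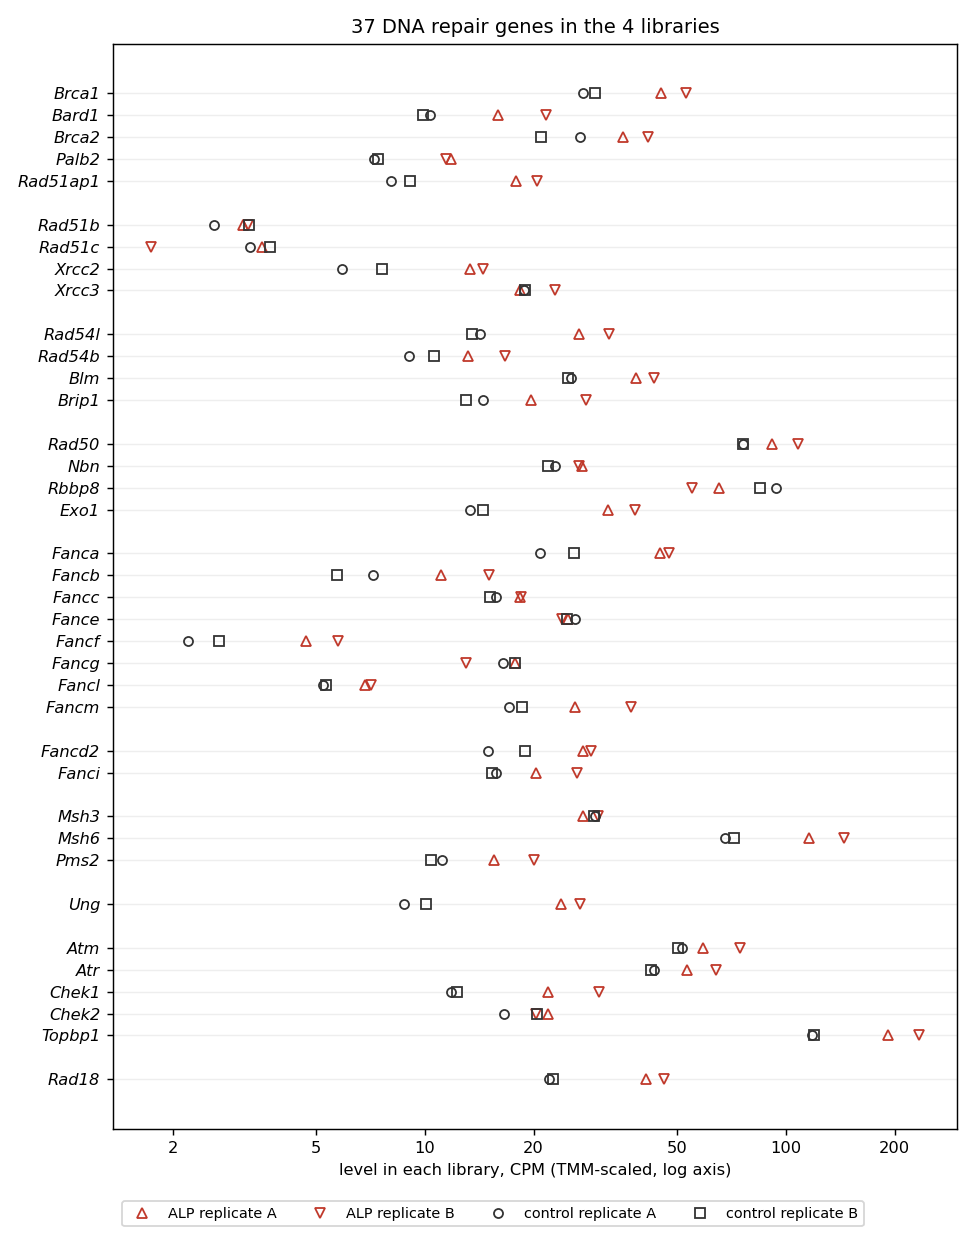
Level of each of the 37 repair genes in each of the 4 libraries, in TMM-scaled CPM on a log axis (x), with genes by role on the y axis and 1 open symbol a library. Topbp1 (118 to 234 CPM) and Msh6 (67.9 to 145 CPM) reach the highest levels, Rad51b and Rad51c lie below 4 CPM in all 4 libraries, and Rbbp8 has both ALP symbols to the left of both controls.

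Among the 8 genes of the Fanconi core complex, which is the ubiquitin ligase of the pathway with its anchor, 4 rose, none fell and 4 did not pass the test, with a median log2 fold change of 0.62. Fanca, the scaffold subunit, stood at 44.7 and 47.3 CPM with ALP and 20.8 and 25.9 CPM in control (0.98 ± 0.14, adjusted p = 0.0151). Fancb, which sits with the catalytic subunit, stood at 11.1 and 15.1 CPM against 7.19 and 5.71 CPM (1.02 ± 0.23, adjusted p = 0.0288). Fancf, an adaptor subunit, stood at 4.69 and 5.75 CPM against 2.21 and 2.68 CPM (1.09 ± 0.26, adjusted p = 0.0314). The groups did not overlap in any of these. Fancf had 256 counts in all, and 15.0% of its exon bases are shared with Gas2 on the other strand. Fancm, the translocase that anchors the complex to DNA, rose by 0.83 ± 0.20 (adjusted p = 0.0314). Fanca shares 10.5% with Zfp276.

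The other 4 core genes did not pass the test. Fancl, the catalytic subunit that hands on the ubiquitin, stood at 6.83 and 7.11 CPM with ALP and 5.21 and 5.31 CPM in control (0.40 ± 0.19, adjusted p = 0.151). Fancc stood at 18.3 and 18.5 CPM against 15.7 and 15.2 CPM (0.25 ± 0.13, adjusted p = 0.188). In both, the ALP libraries were above the controls without overlap. Fance, which links the core to FANCD2, stood at 24.9 and 24.0 CPM against 26.1 and 24.8 CPM (-0.06 ± 0.12, adjusted p = 0.731). Fancg, a partner of FANCA, stood at 17.8 and 13.0 CPM against 16.5 and 17.8 CPM (-0.16 ± 0.19, adjusted p = 0.557). Both of these overlapped, and in Fancg the low library was ALP replicate B. Fancg is shown because its promoter carries the same 8 E2F letters as Bard1 although it did not pass the test; the window is chr4:43010335-43010364 (minus strand), inside an exon of Fancg.
Fancg: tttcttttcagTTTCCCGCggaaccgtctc

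Both genes of the clamp that the core complex marks with ubiquitin rose. Fancd2 stood at 27.4 and 28.8 CPM with ALP and 15.0 and 18.9 CPM in control (0.73 ± 0.16, adjusted p = 0.0250). Fanci stood at 20.4 and 26.4 CPM against 15.7 and 15.3 CPM (0.59 ± 0.17, adjusted p = 0.0477). Neither overlapped. Fanci was the weakest call of the 24: it missed the threshold with RLE factors (adjusted p = 0.0518) and with upper-quartile factors (adjusted p = 0.0564), and 16% of its exon bases are shared with Polg, an opposite-strand gene with 6019 counts in all against 1307 for Fanci. Leaving out the 5 genes that share at least 10% of their exon bases with a gene of at least 100 counts (Fanci, Rad54l, Fancf, Fancl and Fanca) left 32 genes, of which 20 rose and 1 fell.

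In mismatch repair, Msh6 and Pms2 rose and Msh3 did not pass the test. MSH6 serves to read single mismatched bases and MSH3 larger loops, and PMS2 is the nuclease subunit that follows. Msh6 stood at 116 and 145 CPM with ALP and 67.9 and 71.7 CPM in control (0.90 ± 0.13, adjusted p = 0.0151). Pms2 stood at 15.5 and 20.1 CPM against 11.2 and 10.4 CPM (0.72 ± 0.18, adjusted p = 0.0359). Msh3 stood at 27.4 and 30.3 CPM against 29.6 and 29.4 CPM (-0.03 ± 0.11, adjusted p = 0.847). The groups were apart in Msh6 and Pms2 and overlapped in Msh3. With ALP, Msh6 was the most abundant of the 37 genes per kilobase, at 30.7 CPM per kb. The difference between Msh6 and Msh3 was not tested.

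Ung, the glycosylase that removes uracil from DNA, had the largest change of the 37 genes. The deposited table places it on chromosome 5, 114130386 to 114139323, plus strand. It stood at 23.8 and 27.0 CPM with ALP and 8.78 and 10.1 CPM in control, a log2 fold change of 1.43 ± 0.15 (adjusted p = 0.0149), or 2.70-fold. The lowest ALP library was well above the highest control. Rad18, the ubiquitin ligase that acts on PCNA at stalled forks, stood at 41.1 and 46.1 CPM against 22.1 and 22.6 CPM, also without overlap (0.96 ± 0.11, adjusted p = 0.0149). Neither promoter held a match to the E2F, CCAAT or CHR letters in the window searched.

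Of the damage kinases and their activator, 3 of 5 rose, with a median log2 fold change of 0.46. ATR answers single-stranded DNA at stalled forks, TOPBP1 switches it on, and CHEK1 carries its signal. Chek1 stood at 21.9 and 30.4 CPM with ALP and 11.8 and 12.3 CPM in control (1.12 ± 0.19, adjusted p = 0.0171). Topbp1 stood at 192 and 234 CPM against 118 and 119 CPM (0.84 ± 0.11, adjusted p = 0.0150). Atr stood at 53.3 and 64.1 CPM against 43.0 and 42.3 CPM (0.46 ± 0.12, adjusted p = 0.0384). All 3 were above their controls in both ALP libraries. ATM and CHEK2 form the matching pair for double-strand breaks. Atm stood at 58.9 and 74.7 CPM against 51.6 and 50.3 CPM (0.39 ± 0.13, adjusted p = 0.0747), without overlap. Without ALP replicate A the log2 fold change of Atm was 0.55. Chek2 stood at 21.9 and 20.4 CPM against 16.5 and 20.4 CPM (0.19 ± 0.15, adjusted p = 0.367), where ALP replicate B and control replicate B were level. Whether the ATR genes differed from the ATM genes in response was not tested.

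Topbp1 and Chek2 are shown because both carry E2F letters and only Topbp1 passed the test. The windows are chr9:103305187-103305216 (plus strand), which reaches an exon of Topbp1, and chr5:110839820-110839849 (plus strand).
Topbp1: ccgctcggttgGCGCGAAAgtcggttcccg
Chek2: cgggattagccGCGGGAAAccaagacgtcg

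Promoter letters were read in the 30 of 37 genes with an entry in the RefSeq table, 20 that rose and 10 that did not pass the test. The other 7 are Xrcc2, Rad54b, Rad50, Nbn, Rbbp8, Exo1 and Fancd2. E2F letters were in 8 of 30 (26.7%), among them the 5 windows shown above, compared with 4.7% of the 10049 tested genes with an entry and 2.6% of the 27025 genes with an entry. They were in 4 of 20 genes that rose (Bard1, Brca2, Msh6 and Topbp1) and in 4 of 10 that did not pass the test (Rad51c, Fancg, Msh3 and Chek2). Among all tested genes with an entry, E2F letters were in 6.7% of those that rose and 3.0% of those that fell. Of those that did not pass the test, 4.5% held them. The median log2 fold change of the repair genes was 0.44 for the 8 with a match and 0.75 for the other 22. That difference was not tested. CCAAT, on either strand, was in 18 of 30 (60.0%) compared with 43.0% of the tested genes, with the same 60.0% among genes that rose and genes that did not pass the test. TTTGAA or TTCGAA, letters of the CHR element of mitotic genes, were in 3 of 30 (10%) compared with 16.4%. A gene counts once for a motif however many matches it holds, overlapping ones included, and a match describes letters and not a bound site.

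Some of the 37 genes share their start region with a gene that runs the other way. By the table's coordinates, 14 pairs with starts within 1000 bases of each other are described, and 12 of these neighbours were tested. Among the neighbours 2 rose, 1 fell and 9 did not pass the test, while 8 of the 12 repair genes beside them rose. The shares over all genes tested were 18.0% higher and 12.9% lower. Pms2 and Aimp2, a scaffold of the tRNA synthetase complex, start 117 bases apart and both rose. Aimp2 stood at 26.6 and 30.9 CPM with ALP and 17.9 and 17.4 CPM in control (0.70 ± 0.13, adjusted p = 0.0197), beside 0.72 for Pms2. Rad54l and Pomgnt1, a glycosyltransferase gene 150 bases away, both rose as well, by 1.09 and by 0.54 ± 0.09 (adjusted p = 0.0167).

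Brca1 and its neighbour parted. Nbr1, an autophagy receptor gene that starts 194 bases from Brca1, stood at 148 and 108 CPM with ALP and 235 and 228 CPM in control. It fell by 0.85 ± 0.15 (adjusted p = 0.0180) while Brca1 rose by 0.78, with no overlap in either gene. The difference within a pair was not tested.

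Stretches between the starts of a pair that moved together and a pair that moved apart are shown for comparison, with CCAAT or ATTGG in capitals. The Brca1 stretch is chr11:101551956-101552106 (minus strand) and the Pms2 stretch chr5:143909848-143909963 (plus strand). The first holds 1 match and the second 2, and neither holds E2F letters.
Brca1: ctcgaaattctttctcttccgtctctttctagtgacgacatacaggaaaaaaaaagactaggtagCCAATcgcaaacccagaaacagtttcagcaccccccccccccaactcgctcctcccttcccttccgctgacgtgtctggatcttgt
Pms2: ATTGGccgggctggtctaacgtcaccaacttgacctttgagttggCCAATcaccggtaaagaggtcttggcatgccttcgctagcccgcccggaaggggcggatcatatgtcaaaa

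**Figure D3:**
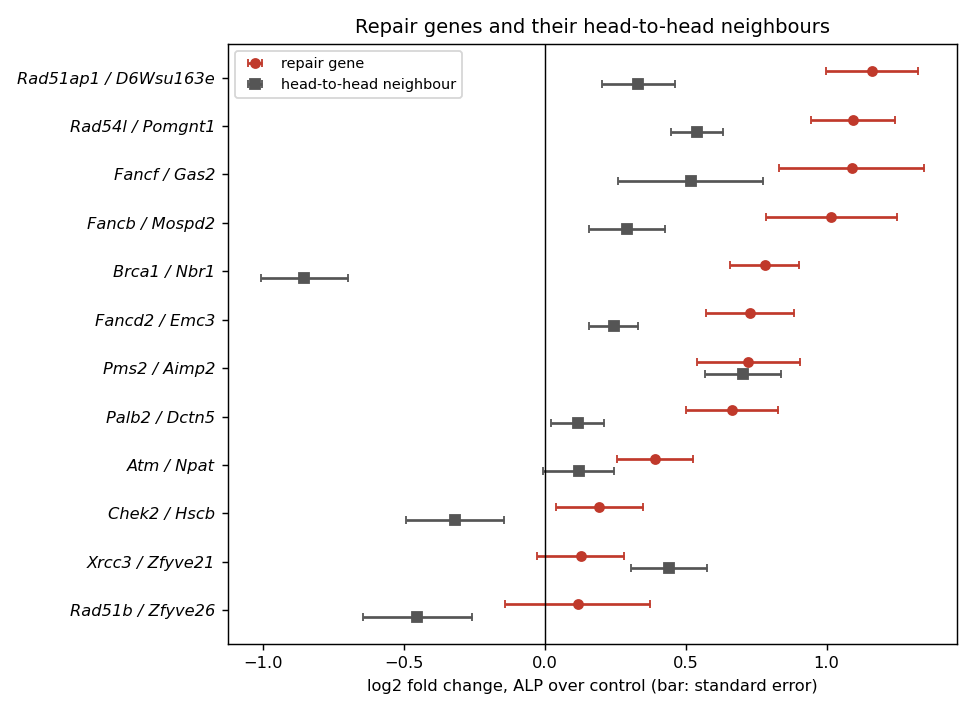
Log2 fold change, ALP over control (x axis), of 12 repair genes (circles) and of the gene that starts within 1000 bases on the other strand (squares), 1 pair a row, with bars for the standard error. Nbr1, at -0.85, lies on the other side of 0 from Brca1, and the squares of Pms2 / Aimp2 sit beside their circles.

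The rest of the same pathways, listed by name, also held more genes that rose than fell, and the genes named from each list are those of smallest p, with the first in the other direction where it passed the test. Of 33 other recombination genes tested, 15 rose and 1 fell (median log2 fold change 0.49). Dna2, a resection nuclease, rose by 1.53 ± 0.16 and Rpa1, which coats single-stranded DNA, by 0.78 ± 0.09, while Sfr1, a recombination cofactor, fell by 0.29 ± 0.08 (adjusted p = 0.0378). Of 16 other Fanconi genes, 6 rose and none fell (0.39), with Uhrf1 at 1.53 ± 0.15 and Ercc1, a subunit of the crosslink-cutting nuclease, at 2.08 ± 0.25. Of 13 other mismatch repair genes, 9 rose and none fell (0.66), with the sliding clamp Pcna at 0.84 ± 0.09 and the clamp loader subunit Rfc5 at 0.93 ± 0.11. Of 22 damage signalling genes, 11 rose and 1 fell (0.43), with Clspn, the CHEK1 mediator, at 0.85 ± 0.10, Timeless at 1.14 ± 0.14 and Trp53bp1, which holds back resection, at -0.35 ± 0.09 (adjusted p = 0.0392), a call that DESeq2 did not make (adjusted p = 0.0696).

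The other repair routes had 9 of 61 genes higher and 5 lower. Base excision repair had 4 of 20 genes higher and 2 lower (median 0.18), among them the flap nuclease Fen1 at 0.94 ± 0.23 (adjusted p = 0.0337) and the polymerase Polb at -0.84 ± 0.16 (adjusted p = 0.0189). With upper-quartile factors 1 of the 20 rose, and with DESeq2 1 rose and 1 fell; Fen1 missed the threshold with DESeq2 (adjusted p = 0.0710). End joining had 2 of 10 higher and none lower (0.20): the KU subunits Xrcc5 at 0.59 ± 0.11 (adjusted p = 0.0203) and Xrcc6 at 0.42 ± 0.12 (adjusted p = 0.0490). Xrcc6 missed the threshold with RLE factors, upper-quartile factors, the 1 CPM filter, DESeq2 and the older quasi-likelihood fit (adjusted p of 0.0513 to 0.0766). Nucleotide excision repair had 1 of 17 higher and 1 lower (0.09), the latter being the damage verifier Xpa at -1.03 ± 0.23 (adjusted p = 0.0267) and the former Gtf2h1, a subunit of the repair factor TFIIH, at 0.34 ± 0.09 (adjusted p = 0.0377), a call lost with upper-quartile factors (adjusted p = 0.0502). Translesion synthesis and damage tolerance, taken as 1 list, had 2 of 14 higher and 2 lower (-0.05). Among them were Polh, the polymerase that copies past ultraviolet lesions, at 0.55 ± 0.09 (adjusted p = 0.0168) and Rev3l at -0.54 ± 0.11 (adjusted p = 0.0219). The 14.8% higher over these other repair routes compares with 18.0% over the whole table. The difference between lists was not tested.

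Genes of DNA replication moved with the repair genes. Of 40 replication genes tested, 38 rose and none fell, with a median log2 fold change of 1.02. The smallest p among them were those of the helicase subunits Mcm3, at 1.65 ± 0.14, and Mcm2, at 1.21 ± 0.11. Of 35 mitotic genes, 25 rose and none fell (median 0.46), with the smallest p for Cdk1, at 0.83 ± 0.10, and Mad2l1, at 0.77 ± 0.10. Of 24 targets of p53, 8 rose and 5 fell (median 0.12), with Plk3 at 2.22 ± 0.25, Tnfrsf10b at 1.31 ± 0.17 and Trp53inp1 at -1.39 ± 0.24 (adjusted p = 0.0165). The part of the replication and mitotic genes in the change of the repair genes was not tested.

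**Figure D4:**
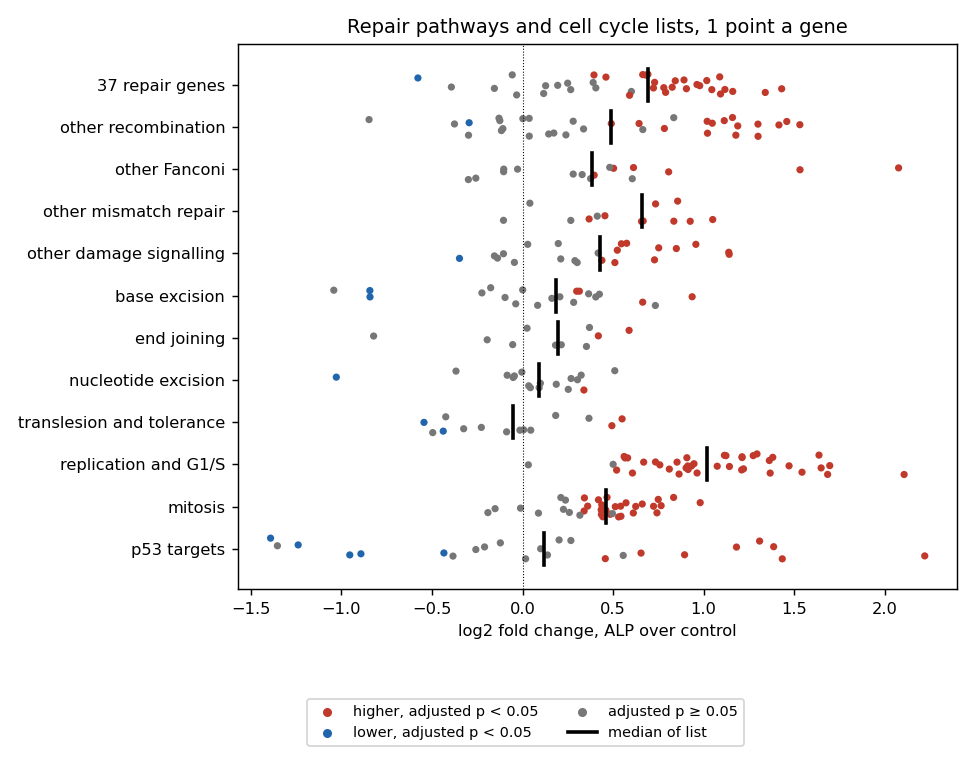
Log2 fold change, ALP over control (x axis), of the genes of each list (y axis), 1 point a gene, red where the gene rose, blue where it fell and grey where adjusted p was 0.05 or more; black bars are list medians. The 37 repair genes (median 0.69) lie between the mitotic genes (0.46) and the replication genes (1.02), and the translesion and tolerance list is centred near 0.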

How the data were processed

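RNA of 4 libraries of mouse epidermal stem cells was measured, 2 given ALP and 2 given DMSO. The authors deposited whole-number read counts per gene, normalized group means (a signal per gene), log2 fold changes and p-values of their own comparison; of the deposited values only the counts, and the gene lengths for CPM per kb, were used for the results. HISAT2 2.0.5 and featureCounts 1.5.0-p3 are named in the submitters' processing notes, which also name a human build, while the gene identifiers in the deposited table are mouse. Coordinates of 35 of the 37 genes equal those of GENCODE M21 (GRCm38). The table's column numbers differ from the replicate numbers in the labels, so columns were assigned to groups only; 4 further columns of per-sample values were not used.

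Genes with enough counts by edgeR's filter (minimum count 10, minimum total 15) were kept, 14056 in all, and TMM-scaled. Libraries were compared with the edgeR 4.0.16 quasi-likelihood F test (two-sided, bias-adjusted deviances, 2 residual degrees of freedom) in R 4.3.3, with Benjamini-Hochberg adjustment over all genes tested and calls at adjusted p under 0.05. CPM are TMM-scaled, and standard errors were derived from log2 fold change and F (their absolute ratio, with F under a square root). The script was tested on simulated data. Alternatives were RLE and upper-quartile factors, no low-count filter, at least 1 CPM in all libraries, DESeq2 1.42.0, voom in limma 3.58.1, leaving out each library and, chosen after seeing the data, edgeR's older quasi-likelihood fit.

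The 37 genes and all lists were chosen with earlier results of these data known. Library values are given in each role group for up to 3 genes of smallest p, for genes that fell and for those that did not pass the test; in other lists the 2 genes of smallest p, and the first in the other direction, may be named. Promoter sequences are from RefSeq (GRCm38.p6). Beside the neighbouring genes counted and named, a further one is not reported here.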

Additional observations from a re-analysis of the deposited data

How the results depend on the processing

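Over RLE factors, upper-quartile factors, the 1 CPM filter, DESeq2, voom and the older quasi-likelihood fit, between 22 and 24 of the 37 repair genes rose and 1 fell, and all that rose were among the 24. With no low-count filter, 25280 genes were tested and edgeR called 0 of the 37 genes higher, 0 lower, and 0 of all genes higher or lower; the smallest adjusted p was 0.0524, and 28 of the 37 genes and 7068 of all genes had an unadjusted p under 0.05. Leaving out each library in turn gave 0 to 26 of the 37 genes higher and 0 to 2 lower, and 0 to 3872 of all genes higher and 0 to 3646 lower. The 0 counts came without control replicate A (3380 genes at an unadjusted p under 0.05) and without control replicate B (4131), where the lone control is assumed to vary like the ALP libraries. The largest counts came without ALP replicate A, where the lone ALP library is assumed to vary like the controls. Calls in that fit hold no spread between ALP libraries. Over all alternatives between 31 and 33 of the 37 genes had a positive log2 fold change. The cause of these shifts was not tested.

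No paired analysis was possible because the replicate numbers of the table's columns differ from those in the labels. The counts of Rad51b and Rad51c are the lowest per kilobase, and small changes in them are not detectable at this depth.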
